A study of Mus musculus with 6 samples.

Results

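Wrn is a RecQ helicase and exonuclease that acts in DNA replication and repair, and its loss in people causes Werner syndrome, a disorder of early ageing. The genes described are Plac8, Olfm1, Crip2, Ripk3, Erdr1, Mcpt8 and Ptn, 7 genes with at least 1 array feature that was much brighter in cells of a single Wrn genotype. They were chosen by their very large ratios on the 2 arrays that set untreated wild type against untreated Wrn mutant fibroblasts, so those ratios are given as a description and were not tested. The 7 genes are carried by 8 array features (Erdr1 has 2) of 41174 in all.

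Primary mouse embryonic fibroblasts were taken from wild type (WT) embryos and from embryos with an in-frame deletion of part of the Wrn helicase domain (WS in the labels, called mutant here), at embryonic day 15 by the labels, on a mixed background that includes Black Swiss. Treated cells received 0.5 mM H2O2 for 1 hour and RNA was taken 24 hours later; untreated cells had no H2O2. Of the 6 two-colour arrays, 2 compared treated (Cy5) with untreated (Cy3) WT cells, 2 compared treated (Cy5) with untreated (Cy3) mutant cells, and 2 compared the untreated genotypes with each other. The labels call replicates biological, but do not say whether they came from separate embryos, so the p-values measure the spread between these arrays. Each of the 4 treatment arrays held cells of 1 genotype, so array and genotype cannot be told apart in the comparisons below.

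The members have unlike roles. Plac8 is a small cysteine-rich protein first described in placenta, Olfm1 a secreted olfactomedin of the developing nervous system, and Crip2 a LIM-domain protein of heart and vessels. Ripk3 is the kinase that passes the death signal on to Mlkl in necroptosis, a form of regulated necrosis. Erdr1 is named for a role in erythroid differentiation, and the RefSeq gene table lists it as a transcribed pseudogene. Mcpt8 is a serine protease of basophils, and Ptn (pleiotrophin) is a secreted growth factor that binds heparin, Ptprz1, Alk and syndecans.

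The starts of 6 of the 7 genes were found in the RefSeq promoter table, with 9 windows in all; Erdr1 had no entry. The 250 bases before the start are shown for both genes with the largest rise in the mutant and for both genes that were lower there, with each CpG in capitals, because the members that moved together can be compared by eye. They come from RefSeq on the GRCm38.p6 build, 5' to 3' on the gene's strand: Plac8 at chr5:100572206-100572455 (minus), Crip2 at chr12:113139986-113140235 (plus), Mcpt8 at chr14:56085198-56085447 (minus) and Ptn at chr6:36810180-36810429 (minus). Plac8 and Crip2 each have a further start in the table.
Plac8: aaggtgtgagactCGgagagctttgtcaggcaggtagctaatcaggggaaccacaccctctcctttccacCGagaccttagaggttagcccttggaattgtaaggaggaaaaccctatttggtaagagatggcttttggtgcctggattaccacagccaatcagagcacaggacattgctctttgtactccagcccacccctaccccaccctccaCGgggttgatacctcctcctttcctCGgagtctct
Crip2: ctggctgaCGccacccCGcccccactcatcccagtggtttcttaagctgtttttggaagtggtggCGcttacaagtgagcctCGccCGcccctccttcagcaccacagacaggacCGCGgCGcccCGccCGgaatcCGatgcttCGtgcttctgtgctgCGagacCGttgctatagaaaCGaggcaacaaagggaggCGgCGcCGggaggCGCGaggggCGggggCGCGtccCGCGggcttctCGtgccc
Mcpt8: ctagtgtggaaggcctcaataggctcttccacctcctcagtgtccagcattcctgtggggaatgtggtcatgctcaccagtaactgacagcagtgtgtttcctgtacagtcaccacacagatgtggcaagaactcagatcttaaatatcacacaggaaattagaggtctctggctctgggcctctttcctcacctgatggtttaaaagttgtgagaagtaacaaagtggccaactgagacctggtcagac
Ptn: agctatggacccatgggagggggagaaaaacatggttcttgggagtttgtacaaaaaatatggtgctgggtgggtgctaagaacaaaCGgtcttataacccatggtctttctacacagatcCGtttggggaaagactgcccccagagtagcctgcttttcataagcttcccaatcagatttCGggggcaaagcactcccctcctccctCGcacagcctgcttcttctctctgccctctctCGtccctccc
The windows were unlike in their CpG content. The Crip2 window held 26 CpG and the Plac8 window 4, while the Ptn window held 5 and the Mcpt8 window 0, against a median of 6 over all 32851 windows. The 2 Olfm1 windows held 23 and 32 CpG and the Ripk3 window 8. Motifs were searched on both strands. The AP-1 motif TGACTCA was in 0 of the 9 member windows and in 4.46% of all windows. The antioxidant response motif TGACNNNGC was in 1 member window, that of Plac8 printed above, and in 10.2% of all windows. The TATA motif TATAAA was in 0 member windows and in 12.4% of all. A match describes the letters of these windows and is not evidence of binding.

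On the 2 genotype arrays, the log2 ratio of Cy5 over Cy3 of Plac8 was 7.48 on replicate 3 and 7.14 on replicate 4, the highest mean of 38708 ranked features. Olfm1 gave 6.16 and 6.31 (rank 3), Crip2 6.11 and 6.03 (rank 4), and Ripk3 4.55 and 5.01 (rank 10). The Erdr1 feature of NM_133362 gave 4.54 and 5.11 (rank 8). Mcpt8 gave -4.26 and -5.38, the second lowest mean, and Ptn gave -4.14 and -3.67, the 8th lowest. The second Erdr1 feature, of AJ539223, stood apart from these with -1.19 and -0.60. The labels put WT cells in Cy5 on these arrays, which would turn every sign (the mean of Plac8 to -7.31 and of Mcpt8 to 4.82 as mutant over WT), whereas the study's list of genotype differences runs with the mutant in Cy5. The direction used below comes only from the 4 treatment arrays, each of 1 genotype by its labels. Apart from the second Erdr1 feature, the features had the direction of the treatment arrays when the mutant was read as Cy5. Read by the labels of these 2 arrays, they had the opposite direction.

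In untreated cells (Cy3 of the treatment arrays), Plac8, Olfm1, Crip2, Ripk3 and the Erdr1 feature of NM_133362 were higher in the mutant, and Mcpt8 and Ptn were lower, by 7.58-fold to 34.9-fold. The question was whether the genotype difference appears in arrays other than the 2 whose ratios chose the genes. The members were chosen with earlier results of these data known, so the test is not a blind check. Of the 8 features, 7 passed the test (limma on per-channel log2 intensities, adjusted p under 0.05 over all 40444 features tested), so that each of the 7 genes was called on at least 1 feature, 5 features higher and 2 lower in the mutant. Over all features, 0.134% were called higher in the mutant and 0.042% lower. Some counts below use an unadjusted p under 0.05. For the genotype differences the share of all features at that threshold was not counted, so such counts have no background beside them.

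Plac8 had a normalized log2 intensity of 5.87 and 6.19 in the 2 WT samples and of 11.17 and 11.11 in the 2 mutant samples. The WT values lay near the level of the empty probes. They exceeded 89.2% and 92.0% of the 314 negative control spots of their arrays, and Plac8 was well above background on 1 of the 2 WT arrays. The signal above local background was 70.3 and 121 in WT cells against 2310 and 2503 in mutant cells. The difference was 5.12 ± 0.17 (log2, SE, n = 2 and 2; adjusted p = 0.00326 by limma), the largest of all features tested.

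Crip2 was 6.59 and 6.78 in WT and 11.69 and 11.48 in the mutant. The groups were far apart, and unlike Plac8 the gene was well above background on both WT arrays, at 2.96 and 4.07 times the median negative control. The second mutant spot was flagged as an outlier and left out of the fit, which gave a difference of 5.01 ± 0.21 (log2, SE, n = 2 and 1; adjusted p = 0.013 by limma). With that spot kept, the difference was 4.90 and the adjusted p 0.0214.

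Olfm1 was 6.19 and 5.99 in WT and 10.05 and 9.80 in the mutant. Unlike Plac8, it was well above background on both WT arrays, and the WT samples were at 1.74 and 1.22 times the median negative control and exceeded 100% and 78.7% of the negative control spots. The difference was 3.85 ± 0.17 (log2, SE, n = 2 and 2; adjusted p = 0.0085 by limma).

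Ripk3 was 6.51 and 6.32 in WT and 9.34 and 8.57 in the mutant. The groups did not overlap, and the 2 mutant samples differed by 0.77. The lower mutant spot was flagged and left out, and the difference was 2.92 ± 0.21 (log2, SE, n = 2 and 1; adjusted p = 0.0293 by limma). With the spot kept it was 2.54 with an adjusted p of 0.121, so the call was lost when flagged spots were kept.

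The 2 features of Erdr1 disagreed. That of NM_133362 was 6.66 and 7.88 in WT and 10.58 and 9.99 in the mutant, with the second WT spot flagged. Its difference was 3.63 ± 0.30 without that spot (log2, SE, n = 1 and 2; adjusted p = 0.0442 by limma), and 3.01 with it (adjusted p = 0.158). That of AJ539223 was 10.75 and 10.32 in WT and 10.48 and 10.11 in the mutant, groups that overlap, with a difference of -0.08 ± 0.25 (95% interval of ± 0.64; adjusted p = 0.92 by limma), which turns to 0.12 without WT replicate 1. A genotype difference of Erdr1 was therefore seen with 1 of its 2 features, and which transcripts each feature detects was not checked, since the files used here hold no probe sequences.

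Mcpt8 was 10.16 and 9.24 in WT and 6.77 and 6.43 in the mutant. No spot was flagged and the groups were clearly apart, although the WT samples differed by 0.93. The difference was -3.11 ± 0.32 (log2, SE, n = 2 and 2; adjusted p = 0.0445 by limma). When flagged spots of all other features were kept, the difference was -3.10 and the adjusted p rose to 0.121.

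Ptn was 12.21 and 11.96 in WT and 7.81 and 7.57 in the mutant. The mutant level was well above background on both arrays, at 3.68 and 3.37 times the median negative control. One spot of each genotype was flagged, which left a difference of -4.21 ± 0.25 (log2, SE, n = 1 and 1; adjusted p = 0.0447 by limma) with a spread that limma took from the other features. With both spots kept it was -4.40 (adjusted p = 0.0291 by limma).

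The number of member features called depended on the arrays used. Without WT replicate 1 or WT replicate 2, 6 member features were called (of 5829 and 2799 features called in all), and without mutant replicate 1 or mutant replicate 2, 0 were called, as were 0 of all features. Over these 4 fits the difference of Plac8 ran from 4.96 to 5.28 and that of Mcpt8 from -3.57 without WT replicate 2 to -2.66 without WT replicate 1. That of Erdr1 (NM_133362) ran from 3.34 without mutant replicate 1 to 3.92 without mutant replicate 2, and could not be fitted without WT replicate 1. With flagged spots kept, 4 member features were called (Plac8, Olfm1, Crip2 and Ptn) of 5 in all. The offset of 50 in the background correction shrinks differences of dim features. With the signals processed by the scanner software the Plac8 difference was 8.88, the Olfm1 difference 6.56 and the Ripk3 difference 4.82, and with plain background subtraction they were 6.56, 5.01 and 3.81. Larger differences did not mean more calls. With the processed signals 2 member features were called, Plac8 and Olfm1, and the adjusted p (limma) was 0.0588 for Crip2 and for Mcpt8, 0.0807 for Erdr1 (NM_133362), 0.0985 for Ripk3 and 0.173 for Ptn.

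**Figure D1:**
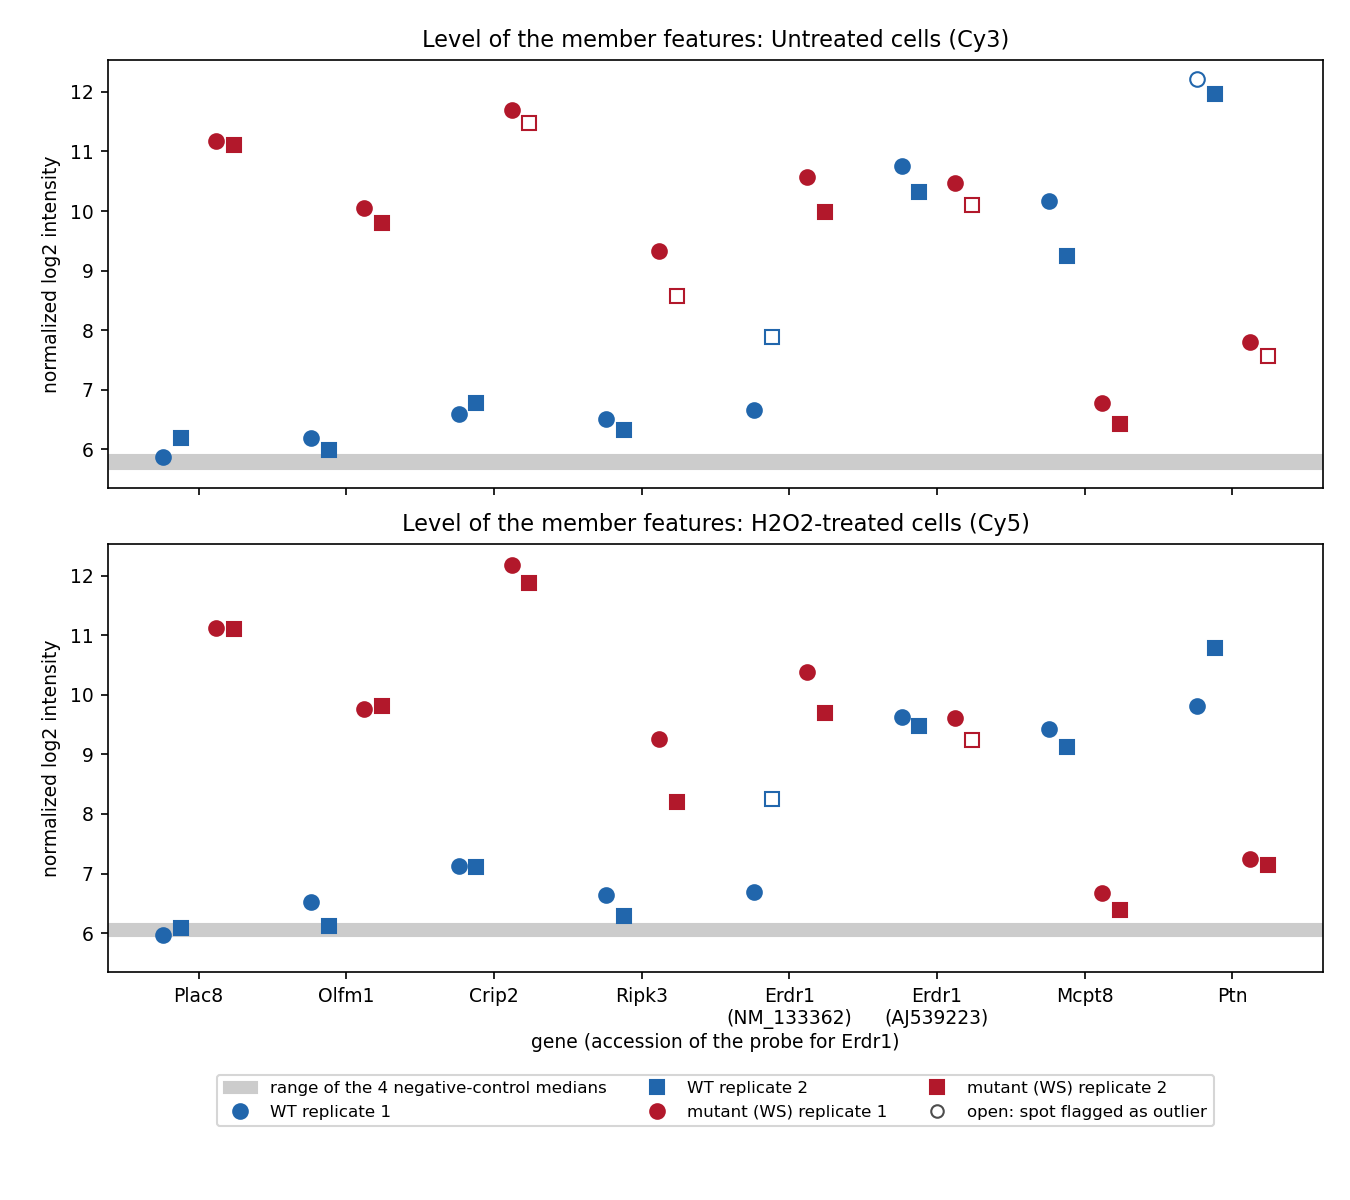
Normalized log2 intensity (vertical axis) of each member feature in the 2 WT (blue) and 2 mutant (red) samples (circles replicate 1, squares replicate 2), in untreated cells above and H2O2-treated cells below; open symbols mark spots flagged as outliers, and the grey band spans the medians of the negative control spots of the 4 arrays. The WT levels of Plac8 and Olfm1 sit at or just above the band, while Crip2 in WT and Ptn in the mutant lie clear of it; the Erdr1 feature of AJ539223 is alike in both genotypes.

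In H2O2-treated cells (Cy5 of the same arrays), the 7 features called in untreated cells had the same direction, the Erdr1 feature of AJ539223 was near 0 with the opposite sign, and 4 of the 8 features passed the test. Plac8, Olfm1 and Crip2 were higher and Mcpt8 was lower in the mutant, while Ripk3, Ptn and Erdr1 did not pass. Over all 40860 features tested, 0.0954% were called higher and 0.022% lower in the mutant. These values share their arrays with the untreated cells, so the 2 comparisons are not independent.

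Plac8 was 5.97 and 6.09 in WT and 11.12 and 11.10 in the mutant. It was not well above background on either WT array, where its level exceeded only 0.318% and 7.01% of the negative control spots. Each WT array was then taken at its lowest signal well above background or at the feature's own level, whichever was higher. With this floor Plac8 was 31.8-fold higher in the mutant. The floors, 6.137 and 6.105, lay under the negative control medians of 6.142 and 6.151, so this ratio is no strict lower limit. The fitted difference was 5.07 ± 0.14 (log2, SE, n = 2 and 2, adjusted p = 0.00492 by limma).

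Crip2 was 7.12 and 7.11 in WT and 12.19 and 11.88 in the mutant, a difference of 4.90 ± 0.17 (adjusted p = 0.00689 by limma). Olfm1 was 6.52 and 6.12 in WT and 9.76 and 9.82 in the mutant, a difference of 3.46 ± 0.18 (adjusted p = 0.0206 by limma). Mcpt8 was 9.42 and 9.12 in WT and 6.67 and 6.38 in the mutant, a difference of -2.73 ± 0.19 (adjusted p = 0.0353 by limma). In each of these genes the distance between the genotypes was many times the spread between replicates. The second WT sample of Olfm1 and the second mutant sample of Mcpt8 were not well above background.

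Ripk3 was 6.64 and 6.29 in WT and 9.25 and 8.21 in the mutant, a difference of 2.25 ± 0.36 (adjusted p = 0.117 by limma). Ptn was 9.81 and 10.79 in WT and 7.24 and 7.15 in the mutant, a difference of -3.08 ± 0.32 (adjusted p = 0.0545 by limma). The Erdr1 feature of NM_133362 was 6.68 and 8.25 in WT and 10.38 and 9.69 in the mutant, a difference of 3.34 ± 0.34 without the flagged second WT spot (adjusted p = 0.0816 by limma). These 3 features had wider replicates than the genes that passed. With 1 array left out, the Ripk3 difference ran from 1.73 (without mutant replicate 1) to 2.78 (without mutant replicate 2) and the Ptn difference from -3.55 (without WT replicate 1) to -2.61 (without WT replicate 2). The Erdr1 feature of AJ539223 was 9.63 and 9.48 in WT and 9.62 and 9.24 in the mutant (difference 0.09 ± 0.20, 95% interval of ± 0.53, adjusted p = 0.904 by limma), and with flagged spots kept the sign turned to -0.12.

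With flagged spots kept, 0 of the 8 features were called in treated cells (adjusted p of Plac8 0.054), as were 0 of all features, although 7 had an unadjusted p under 0.05 with those spots left out. With 1 array left out, which leaves 1 array in a genotype, the number called moved widely. Its range is given further below beside that of all features. When dim features were left out beforehand, 7 of the 8 were called, among 629 features in all.

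**Figure D2:**
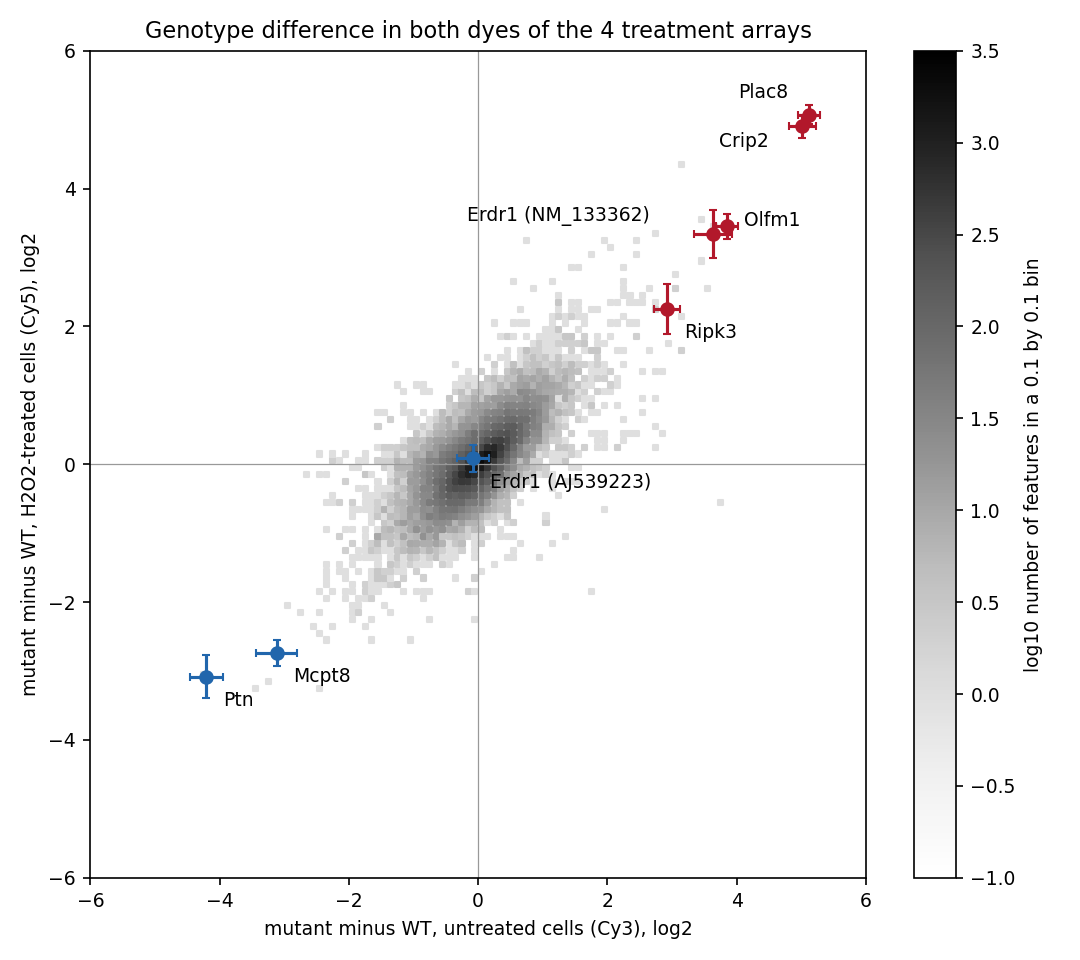
Difference of mutant minus WT (log2) in untreated cells (horizontal axis) and H2O2-treated cells (vertical axis); grey squares count all features in bins of 0.1 by 0.1, and points with bars are the member features with their SE, red where higher and blue where lower in the mutant in untreated cells. Plac8 and Crip2 lie alone at the upper right, at 5.12 and 5.01 in untreated cells, Ptn and Mcpt8 lie at the lower left, and the Erdr1 feature of AJ539223 lies at the centre of all features.

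Across both dyes, 50 of 40291 features (0.124%) differed by more than 2 on the log2 scale in the same direction in untreated and treated cells. The members differed among themselves in how empty the low genotype was. Plac8 was well above background on 1 of 4 WT measurements (2 arrays, 2 dyes) and Olfm1 on 3 of 4, whereas Crip2, Ripk3 and Erdr1 (NM_133362) were well above background on all 4. On the other side, Mcpt8 and Ptn were each well above background on 3 of 4 mutant measurements. By this measure the description as nearly confined to a single genotype fitted Plac8 best, and the other genes were low but passed the background flag on at least 3 of 4 measurements. The flag is lenient. It passed Olfm1 in untreated WT replicate 2, which exceeded 78.7% of the negative control spots, and Ripk3 in treated WT replicate 2, which exceeded 72.3%. A flag passed is therefore not proof of expression in the low genotype.

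The H2O2 response within each genotype was the second question, since it uses another contrast than the one that chose the genes. Treated cells were in Cy5 on all 4 treatment arrays, so the response within a genotype cannot be told apart from an effect of the dye. In the fit of all 6 arrays, none of the 8 features passed the study's thresholds (fold change of 2, mean log2 intensity of 6, adjusted p of 0.005 by limma) in WT or in mutant cells. Neither did any of all features (0% called). At an unadjusted p under 0.05 there were 4 member features in WT and 2 in the mutant, against 8065 of 40303 and 4937 of 41052 of all features. The study itself reported genes past these thresholds in both genotypes, and fits of fewer arrays gave calls here too (given below). Calls were also at 0% for the difference between the responses, where 1 member feature (Olfm1) and 2405 of 40267 features had an unadjusted p under 0.05.

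Plac8 stayed near 0 in the mutant, where it is abundant, with log2 ratios of treated over untreated of -0.03 and -0.08 (mean -0.05 ± 0.20 SE, adjusted p = 0.948 by limma). In WT cells it gave 0.43 and -0.23, values from signals near the floor. Mcpt8 gave -0.75 and -0.10 in WT cells (mean -0.42 ± 0.28 SE, adjusted p = 0.471 by limma), a spread as large as its mean.

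Crip2 gave 0.89 and 0.47 in WT cells (mean 0.68 ± 0.18 SE, adjusted p = 0.118 by limma) and 0.49 on the single mutant array whose spot was not flagged. Olfm1 gave 0.77 and 0.35 in WT (mean 0.56 ± 0.18 SE, adjusted p = 0.147 by limma) and -0.26 and 0.03 in the mutant. Both WT arrays were thus above 0 for these 2 genes, and for Olfm1 the mutant arrays were lower than both. The Olfm1 ratios in WT came from signals near the floor, with a mean log2 intensity of 5.39. In treated WT replicate 2 Olfm1 was not well above background and exceeded only 23.2% of the negative control spots. The difference of the Olfm1 responses was -0.67 ± 0.25 (SE; adjusted p = 0.816 by limma), which did not pass.

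Ptn gave -1.30 on the single WT array with a usable spot and -0.79 on the single mutant array (adjusted p = 0.101 and 0.401 by limma). With flagged spots kept the values were -2.42 and -1.17 in WT and -0.79 and -0.997 in the mutant, so all 4 arrays were below 0. The Erdr1 feature of AJ539223 gave -1.15 and -0.89 in WT (mean -1.02 ± 0.18 SE, adjusted p = 0.0739 by limma) and -0.87 in the mutant, also below 0 on every array. These 2 features were called in WT cells when only the 4 treatment arrays were fitted (adjusted p = 0.00332 and 0.00146 by limma, among 1408 features called); over the alternatives tried the adjusted p ran from 0.00223 to 0.731 for Ptn and from 0.00101 to 0.857 for Erdr1. The same Erdr1 feature gave -1.19 and -0.60 on the 2 genotype arrays, which held no treated cells. The part of the dye in its values was not tested. Ripk3 gave 0.26 and -0.06 in WT and -0.05 on 1 mutant array, and the Erdr1 feature of NM_133362 gave 0.02 on 1 WT array and -0.18 and -0.34 in the mutant.

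**Figure D3:**
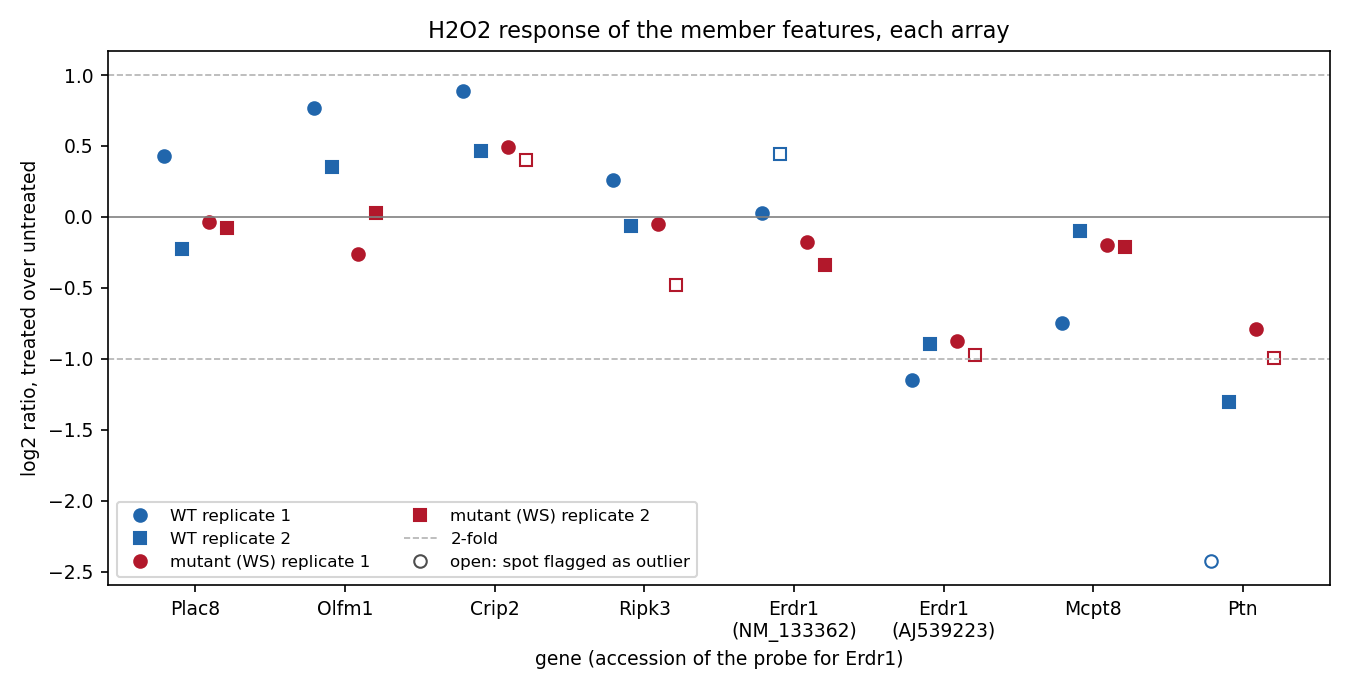
Log2 ratio of H2O2-treated over untreated cells (vertical axis) of each member feature on the 2 WT arrays (blue) and the 2 mutant arrays (red); open symbols mark spots flagged as outliers and dashed lines mark a 2-fold change. Ptn and the Erdr1 feature of AJ539223 are below 0 on all 4 arrays, Mcpt8 is closer to 0 but also below it on all 4, Crip2 is above 0 on all 4, and the other features have arrays on both sides of 0.

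The genes that work with the members were examined from lists written with earlier results of these data known. Among the necroptosis genes, 1 of 13 measured in untreated cells was called, Ripk3 itself. The other 12 ranged from -0.77 (Cflar, an inhibitor of caspase 8) to 0.56 (Cyld, a deubiquitinase), with a median of -0.0018 against 0.028 over all features. Ripk1, the kinase that recruits Ripk3, differed by 0.13 (adjusted p = 0.777 by limma).

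Of the 14 pleiotrophin ligands and receptors, 1 was called, Ptn. The other 13 ranged from -1.25 to 0.73, and 4 of them had an unadjusted p under 0.05. Its related ligand Mdk differed by -0.80 (adjusted p = 0.125 by limma). The receptor Ptprz1 was 10.00 and 9.13 in WT and 11.33 and 7.42 in the mutant, so its mutant samples were further apart than the genotypes.

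Olfm1 was the called gene among 5 measured of the olfactomedin family, whose other 4 ranged from -1.33 to 0.10. Crip2 was the called gene among 6 cysteine-rich LIM proteins, whose other 5 ranged from -0.30 to 1.41. Csrp2 had the highest of these values in both dyes, with 2.31 in treated cells (adjusted p = 0.142 by limma). Of 14 measured proteases of the chymase locus and mast cells, Mcpt8 was called and the other 13 ranged from -0.63 to 0.35. Of the PLAC8 domain proteins only Plac8 was measured. In treated cells, 0 of the other listed genes of these 6 lists were called, with 5 of the 13 pleiotrophin genes and 2 of the 5 LIM genes at an unadjusted p under 0.05.

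**Figure D4:**
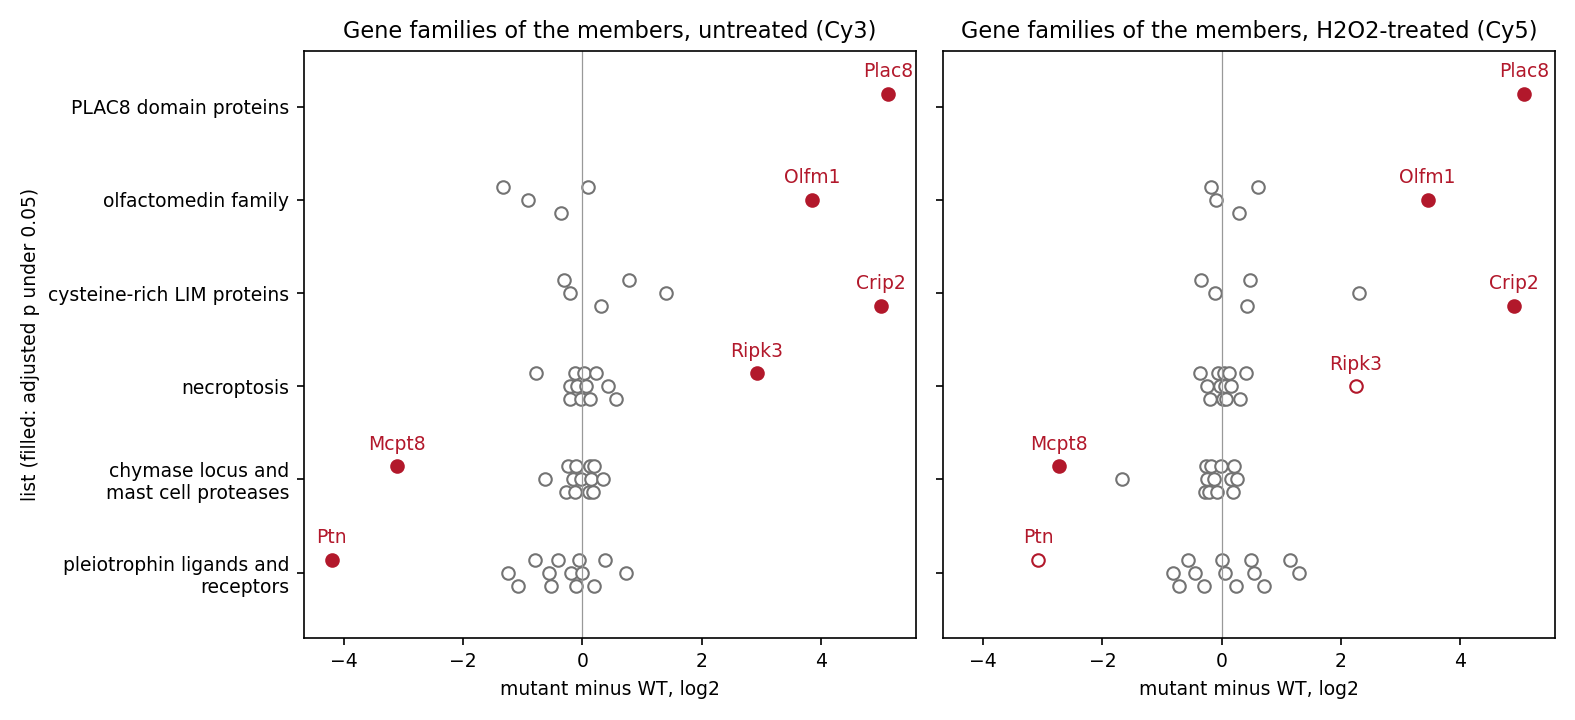
Difference of mutant minus WT (log2, horizontal axis) of every measured gene of the 6 lists, in untreated cells on the left and H2O2-treated cells on the right; filled symbols passed an adjusted p of 0.05 and the members are in red. In the 5 lists with measured relatives the member lies outside their range, which in untreated cells runs from -1.33 to 1.41 over all of them; Ripk3 and Ptn are open in treated cells.

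The neighbours of the members in the genome were examined as well, taking 5 genes on each side in the RefSeq order. Of 66 neighbours, 32 were measured and 0 were called in untreated cells by limma, with a range of -0.68 to 0.77. In treated cells 0 of 32 were called, with a range of -1.68 to 0.70. At an unadjusted p under 0.05 (limma) there were 5 in untreated and 3 in treated cells. The share of all features at that threshold was not counted. Mcpt4, next to Mcpt8, differed by -0.63 and Crip1, near Crip2, by 0.77 in untreated cells, and neither passed. Mcpt2, also near Mcpt8, had the -1.68 in treated cells, where WT replicate 2 (9.48) lay far above WT replicate 1 (6.11). Mcpt8 and Ripk3 both lie on chromosome 14 and moved in opposite directions.

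Markers of other cell types were summed on the same arrays. Of 13 measured markers of mast cells and basophils, 1 was called, Mcpt8 itself, and the summed level in untreated cells was 1918 and 2093 in WT against 390 and 449 in the mutant. Without Mcpt8 the sums were 820 and 1539 in WT against 331 and 413 in the mutant. This gap lay mainly in Il1rl1, Mcpt4 and the WT replicate 2 spot of Mcpt2. Mcpt4 was 7.39 and 8.31 in WT and 6.72 and 6.80 in the mutant, and was not called. Il1rl1, a receptor for interleukin 33, was 8.97 and 8.91 in WT and 6.35 and 6.89 in the mutant, and was not called. Mcpt2 was 9.28 in WT replicate 2 and 6.08 in WT replicate 1. The sums include flagged spots, whereas the Mcpt2 fit left out the spot of WT replicate 2 and gave a difference of -0.03. Other markers of the list were higher in the mutant, among them Cd200r3 by 0.43 and Cpa3 by 0.18. The median difference of the list was -0.09. Fcer1a was 6.60 and 7.28 in WT and 6.54 and 6.87 in the mutant, and was well above background in all 4 untreated samples. Cpa3, Kit and Ms4a2 lay between 5.94 and 6.42 in all 4 untreated samples. Kit and Ms4a2 were well above background on both WT arrays, and on 1 and 0 mutant arrays, while Cpa3 was so on 0 WT arrays and 1 mutant array. The part of such cells in the Mcpt8 difference was not tested, and in bulk RNA fewer cells of a type and less RNA per cell cannot be told apart.

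None of the 11 macrophage, 9 neuronal and glial, 6 endothelial, or 9 cartilage and bone markers measured was called in untreated cells by limma (1, 0, 0 and 3 at an unadjusted p under 0.05), and neither was any of 5 Y-linked genes or Xist. All 9 fibroblast markers measured in untreated cells were well above background in both genotypes, among them Vim, and their summed level was 34201 and 29248 in WT against 44073 and 44716 in the mutant. In treated cells, 2 of these 9 were called higher in the mutant, Dcn (3.26, adjusted p = 0.0390) and Pdgfrb (1.99, adjusted p = 0.0363 by limma). In untreated cells 0 of the 9 were called. Vim went the other way in treated cells, with -0.41 against 0.19 in untreated cells. The summed cartilage and bone markers in treated cells were 3939 and 5552 in WT against 9207 and 15656 in the mutant, with 0 of 9 called. The rise lay mainly in Col2a1, the brightest of the list, at 11.35 and 11.40 in WT and 12.91 and 13.79 in the mutant. The median difference of the list in treated cells was 0.15. In untreated cells these sums overlapped, with 11178 and 9922 in WT against 10758 and 14789 in the mutant. The fibroblast sum in untreated cells, the cartilage and bone sum in treated cells, Dcn and Pdgfrb differed between the genotypes. Their part in the members' differences was not tested.

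The features with profiles most like the members were found over the 8 channels of the 4 treatment arrays, as the smallest root mean square difference (log2) of centred levels among 35371 features. The profile closest to Plac8 was that of Crip2, at 0.26, followed by Mglap at 0.74 and Olfm1 at 0.75. Olfm1 lay closest to Hoxc8 (0.21), a homeobox gene, and D12Ertd647e (0.22), and then to Mglap (0.41). Crip2 lay closest to Plac8, then Olfm1 (0.68) and Hoxc8 (0.75). Ripk3 lay closest to Hoxa7 (0.19), Plxdc2 (0.26) and Siat4a (0.26). On the WT side, the features near Mcpt8 included Ptgis (0.31), prostacyclin synthase, and Ctla2a (0.32). Ptn lay closest to Ctla2b (0.53), Thbs1 (0.56) and Ctla2a (0.57). For Erdr1 the rule used the feature of AJ539223, which lay closest to Efemp2 (0.13), U2af1 (0.14) and Ebp (0.15), none of which differed by more than 0.28 between genotypes in untreated cells. The 8 channels share arrays and fall into 2 genotypes, so the measure weighs the genotype difference most.

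Facts of the arrays that touch these values are as follows. The 4 Wrn features differed by -0.02 to 0.44 between genotypes in untreated cells and none was called (adjusted p from 0.367 to 0.978), and their position relative to the deleted part is not known here, so they do not check the genotype. The share of features well above background ran from 75.8% to 90.0% in Cy3 and from 41.5% to 69.2% in Cy5 over the 6 arrays. Spots flagged as outliers made up 0.40% to 22.6% of an array, the highest share on WT replicate 2. The mean Cy3 signal above background was 1065 and 1406 on the WT treatment arrays and 382 and 385 on the mutant ones, a gap that normalization between arrays removes.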

How the data were processed

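Long-oligonucleotide 2-colour arrays were scanned for 6 hybridizations: treated against untreated cells of each genotype (2 arrays each) and the untreated genotypes against each other (2 arrays). Per the file headers, the deposited mean and background intensities and the processed intensities came from the authors' scanner software (Feature Extraction), which also wrote the log10 ratios of Cy5 over Cy3 and flags for background, saturation and outliers. The authors also deposited a table of log2 ratios, which matched ratios recomputed here as Cy5 over Cy3 after loess. The software version in the headers differs from that in the methods, and the labels and methods differ on the RNA preparation (total or cytoplasmic).

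For genotype differences, intensities were corrected with normexp (offset 50), normalized by loess within and Aquantile between the 4 treatment arrays, and fitted per dye in limma 3.58.1 (R 4.3.3), with outlier spots of that dye left out and Benjamini-Hochberg adjustment over all features. A feature left with 1 array in a genotype takes its spread from the other genotype and from limma's prior. For responses, background was subtracted and loess log2 ratios of all 6 arrays were fitted. Spots of a probe were averaged. Scripts were tested on simulated data. The number of arrays (2 per group) limits the precision.

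The members and lists (necroptosis, pleiotrophin ligands and receptors, olfactomedins, cysteine-rich LIM proteins, PLAC8 domain proteins, chymase locus proteases, cell type markers) were chosen with earlier results of these data known. Named genes are all features of the members, the 3 closest profiles of each, and called list members. A result that this rule would name is not reported here. Other list genes and neighbours named were chosen after their values were seen. Alternatives changed the background, the signals, the normalization, the outlier and dim features, the thresholds, the arrays fitted and a replicate block. No sequences of probes were used here.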

Additional observations from a re-analysis of the deposited data

Results flagged for a closer look

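In the WT cells the log2 response to H2O2 of the Erdr1 feature of NM_133362 was 0.02 on replicate 1 and 0.45 on replicate 2, a spot marked as an outlier, and in mutant cells it was -0.18 and -0.34. The signs were thus opposite in the genotypes. The difference, mutant minus WT and without that spot, was -0.28 ± 0.35 (log2, SE; adjusted p = 0.971 by limma), which did not pass.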

How the results depend on the processing

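Under the alternatives, the genotype difference of all members but the Erdr1 feature of AJ539223 kept its direction in both dyes, while the number of calls moved. In untreated cells, where 7 member features and 71 features in all were called, background subtraction gave 7 and 559, the processed signals 2 and 2, quantile normalization 7 and 158, outlier spots kept 4 and 5, dim features left out 7 and 191, an adjusted p of 0.005 with a level above 6 gave 1 and 1, and both dyes in 1 fit 5 and 232. In treated cells, where 4 and 48 were called, these gave 7 and 654, 7 and 1987, 4 and 28, 0 and 0, 7 and 629, 1 and 1, and 3 and 182. The fit of both dyes keeps outlier spots, because it takes no missing values, and was chosen after seeing the data; the planned version that leaves them out was not run. Leaving out 1 array at a time gave 0 to 6 member features (0 to 5829 in all) in untreated cells and 0 to 7 (0 to 4429) in treated cells. The calls were 0 without either mutant array; the lone array was assumed to vary like the other genotype, and the cause was not tested. The floored ratio of Plac8 in treated cells rose from 31.8-fold to 71.0-fold with background subtracted.

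With the replicate number as a replicate block, 4 member features (28 in all) were called in untreated cells and 7 (116 in all) in treated cells, and 0 members and 40 features for the difference of responses. Same-numbered arrays deviated together with correlations of 0.10 (Cy3), 0.15 (Cy5) and -0.02 (log2 ratio) over 2 pairs, which does not establish a pairing. A block for slide or scan was not run, since each array is on its own slide.

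Signs turned for values near 0. The Erdr1 feature of AJ539223 ran from -0.28 to 0.12 in untreated cells over the fits that leave out 1 array (0.12 without WT replicate 1) and from -0.0032 to 0.18 in treated cells (-0.0032 without WT replicate 2), with -0.12 in treated cells with outlier spots kept or both dyes in 1 fit and -0.0032 with the replicate block. The WT response gave -0.072 (Plac8) and -0.00045 (Erdr1, NM_133362) with Feature Extraction log ratios. Over the fits that leave out 1 array it ran from -0.23 to 0.43 (Plac8) and from -0.064 to 0.26 (Ripk3), lowest without WT replicate 1. The mutant response of Plac8 gave 0.00061 in the authors' table and 0.00058 with outlier spots kept, and that of Olfm1 ran from -0.26 to 0.030, highest without mutant replicate 1. The difference of responses gave 0.048 (Crip2) with normexp, 0.0080 (Plac8) with Feature Extraction log ratios. With 1 array left out it ran from -0.49 to 0.17 (Plac8), -0.40 to 0.026 (Crip2), -0.31 to 0.016 (Ripk3) and -0.10 to 0.54 (Mcpt8), with the turned sign without WT replicate 1. In WT cells the response calls over all features went from 0 to 3 in the authors' table, 104 at an adjusted p of 0.05 alone, 1408 (2 members) with the 4 treatment arrays and 1515 (2 members) with the 2 WT arrays. The last 2 settings gave 462 and 580 in mutant cells with 0 members, and the 4 arrays gave 485 for the difference of responses with 0 members.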
